A study of Mus musculus with 24 samples.

Results

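Transcripts of the mitochondrial ribosomal protein genes were followed through adipocyte differentiation of 3T3-L1 cells, a mouse embryonic fibroblast line whose pre-adipocytes become adipocytes under hormonal stimulation. The genes were chosen by symbol alone: *Mrpl* or *Mrps* followed by a number and at most 1 further letter. This gave 77 of the 26995 genes in the deposited tables, each represented by its 3′UTR entry with the highest mean read count over the 24 libraries. Cells were collected on days −2, 1, 3 and 7 in DMSO or in 0.5 µM ML-792, an inhibitor of the SUMO-activating enzyme, with 3 biological replicates (A, B and C) for each of the 8 conditions. Cultures of days 1, 3 and 7 had been induced with dexamethasone, 3-isobutyl-1-methylxanthine and insulin on day 0, those of day −2 had not, and the study's scheme draws DMSO and ML-792 from day −2 onwards. Induction also changed the serum from calf to fetal bovine. On day 3 the inducing medium was replaced by medium with insulin but without dexamethasone and 3-isobutyl-1-methylxanthine. Every culture was given 100 µM 4-thiouridine over the last 45 min. QuantSeq counts sequence reads at the 3′ end of polyadenylated RNA (total reads), and SLAMseq singles out the reads with at least 1 T-to-C conversion, the trace of newly made RNA (labelled reads). A single immortal line was used, so the replicates are separate cultures of one cell line and not separate animals.

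Mitochondria carry ribosomes of their own, descended from those of bacteria, which translate the few messenger RNAs of the mitochondrial genome into core subunits of the respiratory chain. All proteins of this ribosome are encoded in the nucleus, translated in the cytosol and imported, and many of them have no counterpart in bacteria. White adipocytes build up mitochondria while they differentiate, and their respiratory chain draws on proteins from both genomes. The symbols Mrpl and Mrps stand for the large and the small subunit, but *Mrps18a* and *Mrps30* encode proteins that sit in the large subunit and were counted there. *Mrps36* carries the family's name, although its product is now known as a component of the 2-oxoglutarate dehydrogenase complex.

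Total reads per library ranged from 13554718 to 27013352 over all entries. The 77 genes together received 59293 to 126914 total reads but only 482 to 1373 labelled reads per library. The median member had a mean of 915 total and 7.38 labelled reads, and 67 members had at least 100 total reads in every library. The filter on low counts was passed by 76 members in total reads and by 46 in labelled reads of the DMSO libraries. The exception in total reads was *Mrps36*, the member with the lowest counts, with 0 to 13 normalized reads per library. In DMSO, all 7 adipocyte markers (*Adipoq*, *Fabp4*, *Plin1*, *Cfd*, *Cidec*, *Lpl*, *Pparg*) were higher on days 3 and 7 than on day −2, and all 5 tested pre-adipocyte markers were lower. Of 5 markers of dividing cells, 4 were higher on day 1 and all 5 were lower on day 7. Macrophage markers summed to 25.5 to 145.8 normalized reads per library and endothelial markers to 20.5 at most. In such bulk samples, a change in the share of cells of one kind and a change of RNA per cell cannot be told apart.

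Promoter sequences are shown for 5 members to set the gene with the largest rise (*Mrpl12*) and the gene that fell (*Mrps6*) beside 3 members that rose and hold a motif. They are the 100 bases before the annotated start of transcription, 5′ to 3′ on the gene's strand, from RefSeq on GRCm38.p6. The positions are chr11:120484537-120484636 (plus strand) for *Mrpl12*, chr16:92058236-92058335 (plus) for *Mrps6*, chr13:14613038-14613137 (minus) for *Mrpl32*, chr6:125192100-125192199 (plus) for *Mrpl51* and chr2:130563657-130563756 (plus) for *Mrps26*. Capitals mark the letters of a searched motif on either strand.
Mrpl12: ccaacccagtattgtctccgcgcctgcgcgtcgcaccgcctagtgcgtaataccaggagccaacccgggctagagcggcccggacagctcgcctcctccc
Mrps6: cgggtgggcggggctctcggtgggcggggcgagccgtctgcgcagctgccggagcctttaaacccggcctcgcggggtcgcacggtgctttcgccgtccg
Mrpl32: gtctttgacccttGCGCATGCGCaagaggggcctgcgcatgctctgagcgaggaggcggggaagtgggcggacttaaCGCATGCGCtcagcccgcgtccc
Mrpl51: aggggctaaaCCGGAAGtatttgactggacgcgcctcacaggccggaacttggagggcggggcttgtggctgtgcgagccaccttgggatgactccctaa
Mrps26: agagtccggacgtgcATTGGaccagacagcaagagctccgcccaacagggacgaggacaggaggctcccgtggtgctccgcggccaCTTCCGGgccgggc

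The motifs were those of NRF1 (GCGCATGCG), ETS factors such as GABPA (CCGGAAG), YY1 (AAGATGGCG), E-box factors such as MYC (CACGTG) and NF-Y (CCAAT), each searched on both strands. NRF1, GABPA and YY1 are known as regulators of nuclear genes for mitochondrial proteins. *Mrpl32* holds the NRF1 letters in 2 places, *Mrpl51* the ETS letters, and *Mrps26* both NF-Y and ETS letters, while none of these words lies in the 100 bases of *Mrpl12* or *Mrps6*. Over the window from 250 bases before to 50 after the start, 68 of the 77 members had a sequence. The ETS word was in 24 of them (35.3%), against 9.12% of all 27025 genes and 18.4% of the 9591 genes tested on total reads. YY1 was in 8 (11.8%, against 1.49% of all genes and 3.25% of tested genes) and NRF1 in 7 (10.3%, against 1.81% and 3.87%). The E-box was in 5 (7.35%, against 7.24% and 10.3%) and NF-Y in 27 (39.7%, against 37.9% and 39.2%). Of 49 members with a sequence that were higher on day 3 in DMSO, 16 held the ETS word and 8 the YY1 word, and of 18 tested members that were not, 8 and 0 did. In these 2 groups NRF1 was in 4 and 3, the E-box in 5 and 0, and NF-Y in 20 and 6. Whether the groups differ was not tested. A match describes the letters of the window and is not evidence of a bound factor.

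Most mitochondrial ribosomal protein genes had more total reads on days 3 and 7 than on day −2 in DMSO. Summed over the 77 genes, they made 0.448% ± 0.0186 of all reads on day −2, 0.640% ± 0.0459 on day 1, 0.962% ± 0.0677 on day 3 and 0.848% ± 0.0808 on day 7 (SD, n = 3 per day, 1 entry per gene). In replicates A, B and C the share was 0.447%, 0.467% and 0.430% on day −2, and 0.885%, 0.993% and 1.01% on day 3. Every library of days 1, 3 and 7 thus lay above every library of day −2. *Mrps6* alone holds a sizeable part of these reads and took the opposite course, as described further on. Without it the share rose from 0.374% ± 0.0239 on day −2 to 0.912% ± 0.0701 on day 3 and stood at 0.809% ± 0.0739 on day 7 (SD, n = 3 per day).

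**Figure D1:**
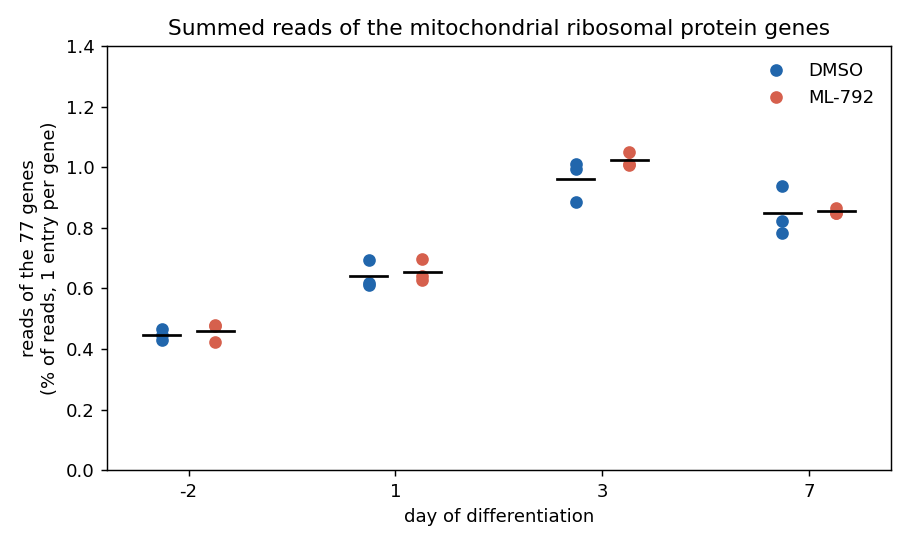
Total reads of the 77 mitochondrial ribosomal protein genes as a percent of all reads (vertical axis, 1 entry per gene) by day of differentiation, with 1 point per library, DMSO in blue, ML-792 in red and the mean of 3 as a black line. Both treatments rise from 0.422 to 0.480% on day −2 to 0.885 to 1.05% on day 3.

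Each day was compared with day −2 in the 12 DMSO libraries by edgeR's quasi-likelihood test, with Benjamini-Hochberg adjustment over all tested 3′UTR entries and a threshold of 0.01 on the adjusted p. On day 1, 8 of 76 members were higher and 0 lower, where 7.27% of all tested genes were higher and 10.3% lower. On day 3, 55 members were higher and 0 lower (all genes: 17.4% higher, 20.1% lower). On day 7, 52 members were higher and 1 lower (all genes: 19.6% higher, 20.1% lower). The median log2 fold change of the members against day −2 was 0.39 on day 1, 1.27 on day 3 and 1.13 on day 7, while that of all tested genes was 0.00, 0.00 and -0.02. The members' libraries did not overlap between day 3 and day −2 in 60 members that were higher and 1 that was lower, and the same counts held on day 7. Among all tested genes, 28% were higher without overlap on day 3 and 30.2% on day 7. The share of all genes that were lower without overlap was not counted.

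The rise fell mainly between days 1 and 3. Day 3 exceeded day 1 in 33 members and lay below it in 1 (all genes: 11.8% higher, 12.4% lower), with a median log2 fold change of 0.79. From day 3 to day 7 only 1 member was called, *Mrpl49*, which was lower (all genes: 6.86% higher, 4.57% lower), and the members' median was -0.01. An unadjusted p under 0.05 in edgeR's test was reached by 8 members. The interval of 2 standard errors lay within 1 log2 unit of 0 for 59 of the 76. Of the 57 members called higher on day 3 or 7, 50 were called at both days, 5 on day 3 alone and 2 on day 7 alone. The 8 members called on day 1 were all called on day 3 too. The counts of calls depended on single replicates. On day 1 there was 1 call without A or without C and 16 without B, and on day 3 there were 33 without A and 35 without C. On day 7, 30 calls were made without A, and for day 3 against day 1 there were 4 without A, 6 without C and 57 without B. The median on day 3 moved little, from 1.20 without C to 1.28 without A. With the replicate letter as a block, 24 members were called on day 1 and 54 between days 1 and 3. The share of all genes called in that fit is not given, so the larger counts are not read as a result about the members.

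**Figure D2:**
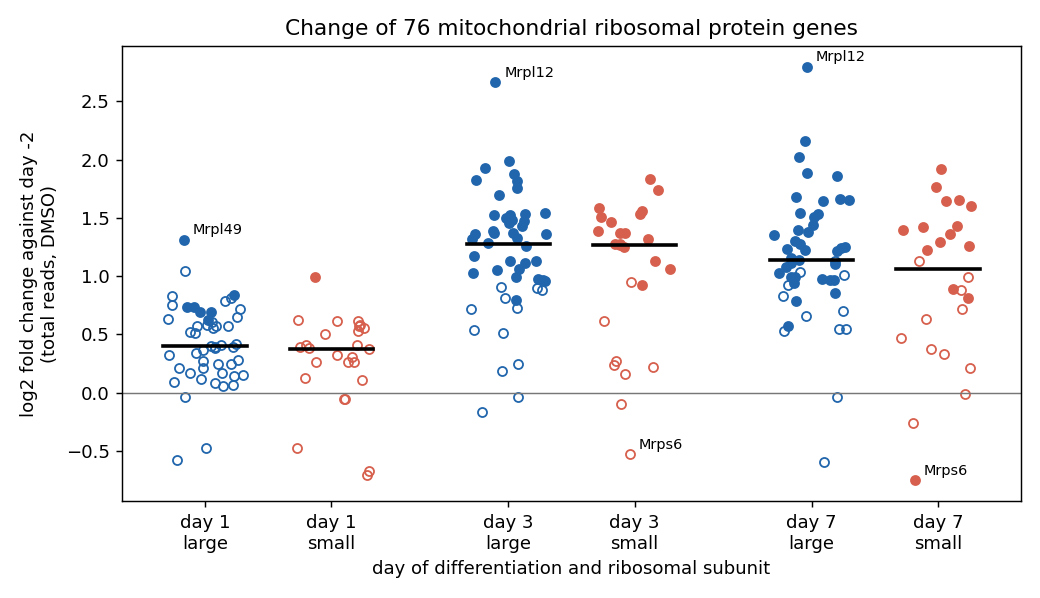
Log2 fold change of total reads against day −2 in DMSO (vertical axis) for each of the 76 tested members, by day and ribosomal subunit. Filled points passed an adjusted p of 0.01 in edgeR's test, open points did not, and black lines are medians. On days 3 and 7 the clouds of both subunits lie mostly above 0.5, with *Mrpl12* at the top and *Mrps6* at the bottom.

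Both ribosomal subunits took part. Of 50 tested genes for the large subunit, 7 were higher on day 1, 38 on day 3 and 38 on day 7, with a median log2 fold change of 1.27 on day 3 and 1.14 on day 7. Of 26 genes for the small subunit, 1, 17 and 14 were higher and 1 was lower on day 7, with medians of 1.27 and 1.06. The 47 genes whose proteins have a bacterial counterpart had medians of 1.06 on day 3 and 0.99 on day 7, with 33 and 30 members higher. The 29 genes for proteins found only in mitochondrial ribosomes had medians of 1.36 and 1.30, with 22 higher at each day. The difference between these classes was not tested. The first class holds *Mrpl22*, *Mrpl23*, *Mrps18b* and *Mrps21*, with means of only 15.7, 12.4, 11.3 and 10.8 total reads. By place in the ribosome, 3 of 4 genes for the stalk, which recruits translation factors, were higher on day 3 and all 4 on day 7. Around the exit of the tunnel through which the new protein leaves, 3 of 7 were higher on day 3 and 4 on day 7. These 7 include *Mrpl22* and *Mrpl23*, whose few reads make a call unlikely. For the central protuberance, which faces the small subunit, 5 of 7 were higher at both days.

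*Mrpl12* showed the largest fold change at both days. It encodes the L7/L12 protein of the stalk and lies on chromosome 11, where its counted 3′UTR spans chr11:120488435-120488754 (mm10, plus strand). Its normalized total read counts (counts at a common library size) in A, B and C were 997, 908 and 893 on day −2 and 1411, 1431 and 1254 on day 1. They were 5954, 5988 and 5816 on day 3 and 5950, 7953 and 5575 on day 7. The groups of days 3 and 7 thus lay far above those of days −2 and 1. The log2 fold change against day −2 was 2.67 on day 3 (standard error 0.17, adjusted p = 1.32e-08 in edgeR's test) and 2.80 on day 7 (0.17, adjusted p = 6.68e-09).

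*Mrpl15*, *Mrpl20*, *Mrpl49* and *Mrps7* followed *Mrpl12* on day 3. *Mrpl15*, a protein of the core of the large subunit, had 443, 534 and 487 normalized reads on day −2 and 1471, 1933 and 2393 on day 3. *Mrpl20*, another large-subunit protein of bacterial descent, had 755, 963 and 758 on day −2 and 2439, 3545 and 3451 on day 3. *Mrps7*, a protein of the head of the small subunit, had 856, 698 and 837 on day −2 and 2777, 2537 and 3201 on day 3. In each of the 3 genes all libraries of day 3 lay above all of day −2, with log2 fold changes of 1.99, 1.93 and 1.83. On day 7 the highest values after *Mrpl12* were those of *Mrpl38* (2.16) and *Mrpl46* (1.88), both of the central protuberance, with *Mrpl15* (2.02) and *Mrps7* (1.92) between them. *Mrpl38* went from 408, 321 and 462 normalized reads on day −2 to 1503, 2145 and 1680 on day 7.

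Among the 8 members higher on day 1, *Mrpl49* had the largest change. It encodes a large-subunit protein without a bacterial counterpart. Its normalized reads were 689, 706 and 669 on day −2, 1673, 1900 and 1559 on day 1, 2318, 2591 and 2657 on day 3, and 1399, 1673 and 1382 on day 7. The gene thus peaked on day 3, where no library overlapped those of any other day. Its log2 fold change was 1.31 on day 1 (standard error 0.15, adjusted p = 1.99e-05), 1.87 on day 3 and 1.11 on day 7, and -0.76 between days 3 and 7 (adjusted p = 0.00257, edgeR). The next was *Mrps25*, a small-subunit protein (0.99, adjusted p = 0.00535), and the others were *Mrpl4* (0.84), *Mrpl57* (0.73), *Mrpl17* (0.73), *Mrps18a* (0.69), *Mrpl51* (0.69) and *Mrpl10* (0.63). The 3′UTR entry of *Mrpl49* shares 89 bases with that of *Syvn1* and the entry of *Mrps25* shares 3547 bases with that of *Nr2c2*, each on the opposite strand. The kit keeps strand and SlamDunk was run with its default settings. Whether reads of the opposite strand entered these counts was not tested. The entries of *Mrpl19*, *Mrpl24* and *Mrpl41* have such a partner too, and that of *Mrpl24* is shared with *Rrnad1* over all its 104 bases.

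**Figure D3:**
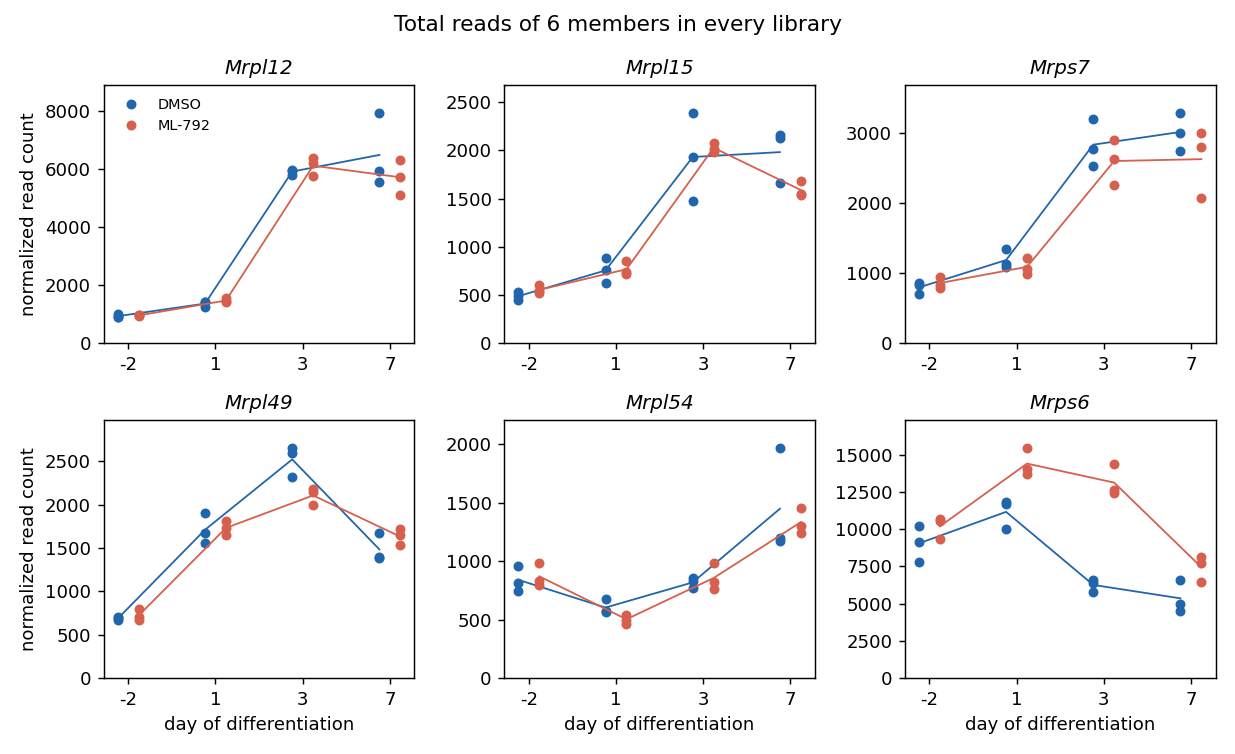
Normalized total reads (vertical axes, each from 0) of 6 members by day of differentiation, with 1 point per library, DMSO in blue and ML-792 in red, and lines through the means of 3. *Mrpl12*, *Mrpl15* and *Mrps7* step up between days 1 and 3, *Mrpl49* peaks on day 3, *Mrpl54* is highest on day 7, and *Mrps6* falls in DMSO while it stays at 12421 to 14332 on day 3 in ML-792.

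The smallest rises past the threshold on day 3 were those of *Mrpl36* (0.80), *Mrps17* (0.92), *Mrpl14* (0.96), *Mrpl3* (0.97) and *Mrpl30* (0.97), all of bacterial descent, and on day 7 those of *Mrpl24* (0.58), *Mrpl54* (0.78), *Mrps17* (0.81) and *Mrpl30* (0.85). The day 7 call of *Mrpl24* held in only 3 of 8 other settings, with values between 0.42 and 0.77. *Mrpl54*, which sits near the stalk, was one of the 2 members called on day 7 and not on day 3. Its normalized reads were 959, 748 and 815 on day −2, 674, 562 and 576 on day 1, 770, 832 and 854 on day 3, and 1198, 1970 and 1176 on day 7. On day 7 replicate B stood above the others, and the call (0.78, adjusted p = 0.00499) was lost without TMM factors (0.64) and without replicate A (1.01), B (0.42) or C (0.89). On day 3 the gene lay among the values of day −2 (log2 fold change -0.04, adjusted p = 0.9, edgeR). Of the 21 members without a call on day 3, 6 had a mean of under 100 reads, and 54 of the 69 tested members with a mean of 100 or more were called. Among those with many reads and no call were *Mrpl33* (0.81, adjusted p = 0.0139), *Mrps16* (0.95, adjusted p = 0.0179) and *Mrpl13* (0.90, adjusted p = 0.026), named here after their values were seen.

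The 3 proteins of the S18 family occupy different places in the ribosome, and their genes gave different values. *Mrps18a* had 1001, 845 and 1068 normalized reads on day −2, 2436, 2484 and 3178 on day 3 and 2628, 2965 and 2860 on day 7, and was higher at all 3 days (log2 fold change 0.69, 1.47 and 1.54). *Mrps18c* had 173, 299 and 167 on day −2, 410, 698 and 407 on day 3 and 296, 304 and 281 on day 7. It was called on day 3 only (1.25, adjusted p = 0.00258) and had 0.46 on day 7 (adjusted p = 0.208, edgeR). *Mrps18b*, with a mean of 11.3 reads, had log2 fold changes of -0.71, -0.10 and 0.33, none of which passed the test. Whether the 3 genes differ from each other was not tested.

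*Mrps6* was the member with the most reads and the only one called lower than on day −2. It encodes the small-subunit protein S6, and its counted 3′UTR lies at chr16:92111926-92112227 (mm10, plus strand). In DMSO its normalized reads were 10200, 7788 and 9140 on day −2, 11795, 11671 and 10002 on day 1, 6418, 6582 and 5778 on day 3, and 4497, 6591 and 4979 on day 7. Days 3 and 7 thus lay below all libraries of days −2 and 1. The log2 fold change against day −2 was 0.30 on day 1 (adjusted p = 0.247), -0.53 on day 3 (adjusted p = 0.025, not called) and -0.76 on day 7 (standard error 0.18, adjusted p = 0.00275, edgeR). Between days 1 and 3 it was -0.83 (adjusted p = 0.00227). The call on day 7 was lost without replicate A and without replicate C, with values between -1.03 and -0.55 over all settings.

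Genes that work with the mitochondrial ribosome were examined in lists that hold no member. Of 17 aminoacyl-tRNA synthetases of mitochondria, which load its transfer RNAs, 2, 11 and 14 were higher on days 1, 3 and 7, with the highest day 7 values for *Ears2* (2.07) and *Tars2* (1.99) and the lowest called ones for *Hars2* (0.76) and *Vars2* (0.94). Of 11 translation factors, 0, 5 and 7 were higher, from *Tufm*, the elongation factor Tu (1.74), and *Gfm2* (1.59) down to *Mrrf* (1.15) and *Mtfmt* (0.86). Of 26 genes for assembly of the ribosome, 1, 9 and 13 were higher, from *Rnmtl1*, a methyltransferase of the large ribosomal RNA (2.03), and *Ddx28* (1.94) down to *Rbfa* (0.78) and *Mpv17l2* (0.71). Of 5 ribosomal proteins with other symbols, 0, 2 and 3 were higher, namely *Ptcd3* (1.61), *Dap3* (1.19) and *Aurkaip1* (1.11) on day 7. Among 11 genes for copying and transcribing mitochondrial DNA, 0, 5 and 6 were higher, with *Tfb2m* (1.87) and *Taco1* (1.68) at the top and *Polrmt*, the mitochondrial RNA polymerase (1.08), as the lowest. *Mterf1a* was lower on day 7 (-3.21), on 14.7 ± 4.95 normalized reads on day −2 and 1.51 ± 1.72 on day 7 (SD, n = 3). Of these 70 genes together, 3, 32 and 43 were higher on days 1, 3 and 7, where 7.27%, 17.4% and 19.6% of all tested genes were.

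Among 9 regulators of mitochondrial biogenesis, 2 were higher and 2 lower on day 7, shares near those of all tested genes (19.6% higher and 20.1% lower). *Ppargc1b*, a coactivator of nuclear receptors, rose from 103 ± 2.17 normalized reads on day −2 to 2877 ± 118 on day 3 and 2967 ± 216 on day 7 (SD, n = 3; log2 fold change 4.84 on day 7). *Esrra*, the nuclear receptor ERRα, rose by 2.12 on the log2 scale on day 7. The related coactivators *Ppargc1a* and *Pprc1* were lower on day 7 (log2 fold change -1.87 and -1.05).

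Genes of the cytosolic ribosome and of oxidative phosphorylation are given for comparison. Of 72 tested genes for cytosolic ribosomal proteins, 6 were higher on day 3, while 1 was higher and 9 were lower on day 7, with medians of 0.41 and -0.65. Among all tested genes, 17.4% were higher and 20.1% lower on day 3, and 19.6% and 20.1% on day 7. Against day −2 the calls of the cytosolic genes thus lay below the shares of all genes in both directions. Of 77 tested genes for subunits of oxidative phosphorylation, which include the nuclear partners of the proteins made by mitochondrial ribosomes, 63 were higher and 1 lower on day 3 and 67 higher on day 7, with medians of 1.45 and 1.65. Between days 3 and 7 the cytosolic genes had a median of -1.06, the oxidative phosphorylation genes 0.31 and the mitochondrial ribosomal protein genes -0.01. In that comparison 22 of the 72 cytosolic genes were lower and 0 higher (all genes: 6.86% higher, 4.57% lower). Of the 77 oxidative phosphorylation genes, 5 were higher and 0 lower. These are descriptions of gene lists side by side, and the difference between lists was not tested.

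ML-792 left most members near their DMSO level at each day. The treatment was compared with DMSO in a fit of all 24 libraries, with a call at an adjusted p under 0.1 in edgeR's quasi-likelihood test. On day −2, 0 of 76 members were called (1 at an unadjusted p under 0.05, and 0% of all genes called), and with DESeq2 also 0. The study's methods do not state how long the day −2 cultures had been treated, which limits what 0 calls on that day show. On day 1, 0 were called (3 at an unadjusted p under 0.05, and 1 by DESeq2), against 3.77% of all genes higher and 4.35% lower. On day 3, 2 were higher and 1 lower (all genes: 8.44% higher, 7.02% lower), and on day 7, 3 were higher and 0 lower (all genes: 6.12% higher, 5.66% lower). The members' median log2 difference was -0.04, -0.12, 0.00 and -0.03 at the 4 days. The interval of 2 standard errors around the difference lay within 1 log2 unit of 0 for 69, 69, 65 and 68 of the 76 members, which bounds the differences of these genes without showing that they were 0. The summed share of reads in ML-792 was 1.02% ± 0.0230 on day 3 and 0.854% ± 0.00963 on day 7 (SD, n = 3), next to 0.962% and 0.848% in DMSO.

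*Mrps6* was the exception. In ML-792 its normalized reads in A, B and C were 10562, 9330 and 10649 on day −2, 15462, 13998 and 13725 on day 1, 14332, 12596 and 12421 on day 3, and 8133, 6464 and 7732 on day 7. On days 1 and 3 every treated library lay above every DMSO library, while 1 treated library of day 7 lay below the highest DMSO library. The log2 difference from DMSO was 0.17 on day −2, 0.37 on day 1, 1.07 on day 3 (standard error 0.15, adjusted p = 3.13e-05) and 0.47 on day 7 (adjusted p = 0.0632, edgeR). The day 3 difference passed the threshold in each of 9 other settings, between 1.02 and 1.13, and that of day 7 in 5 of 9. In the test of day by treatment, *Mrps6* was the only member called (adjusted p = 0.0398, where 12% of all tested genes were called). That call was lost without a filter on low counts and without replicate A or C.

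The other calls concerned *Mrpl36* and *Mrps10* on day 3 and *Mrpl50* and *Mrpl9* on day 7. On day 3, *Mrpl36* was higher in ML-792 (log2 difference 0.50, adjusted p = 0.0829), with 1798, 1631 and 2325 normalized reads against 1285, 1247 and 1545 in DMSO. *Mrps10* was lower (-0.79, adjusted p = 0.0816), with 75.0, 96.3 and 82.8 against 94.1, 188.9 and 156.2, where the groups overlapped by 1 library. On day 7, *Mrpl50* (0.67, adjusted p = 0.0342) and *Mrpl9* (0.61, adjusted p = 0.0718) were higher, and in both genes all treated libraries lay above all DMSO libraries. The calls varied with the libraries used: 1, 5 and 1 members were called on day 3 without A, B and C, and 0, 7 and 0 on day 7. On day 3 in ML-792, 3 pre-adipocyte markers were higher and 2 markers of dividing cells and 2 of adipocytes lower than in DMSO. On day 7, 3 adipocyte markers were higher and 0 lower, and 2 pre-adipocyte markers were higher and 1 lower. Their part in the values of the members was not tested. Of the 70 other genes of mitochondrial translation and DNA expression, 2 were higher and 2 lower on day 3 (all genes: 8.44% higher, 7.02% lower). *Ppargc1a*, by contrast, had 731 ± 83.4 normalized reads in ML-792 against 196 ± 77.5 in DMSO on day 3 (log2 difference 1.90, adjusted p = 1.1e-05).

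In labelled reads few members were called against day −2, while the median of all genes was lower. With library sizes taken from the total reads, 0 of 46 members were called on day 1 (3 at an unadjusted p under 0.05), 2 were higher and 1 lower on day 3, and 2 higher and 1 lower on day 7. Of all tested genes, 0.633%, 2.18% and 2.20% were higher and 20.5%, 34.7% and 30.8% lower at the 3 days. The members' median log2 fold change was -0.37, -0.24 and -0.16, against -1.18, -1.59 and -1.45 for all genes. These values depend on the scaling. When labelled counts were scaled to the labelled reads of each library, the members' medians became 0.91, 1.45 and 1.32, and 2, 8 and 6 members were called, all higher. Under this scaling the medians of all genes were 0.04, -0.01 and -0.01. The members' median thus lay above that of all genes at each day under both scalings. Its direction still turns with the scaling, and all members' labelled changes are relative to it. On day 3 no member was called without replicate A or without C, and the members' median was 0.17 without A. A typical member had under 10 labelled reads per library, and none of the 46 had an interval of 2 standard errors within 1 log2 unit of 0.

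**Figure D4:**
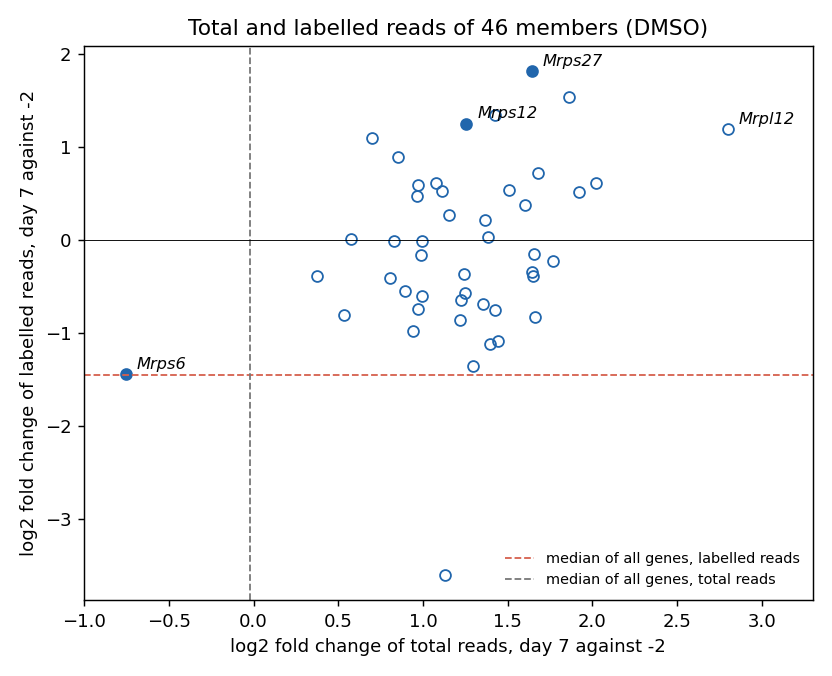
Log2 fold change on day 7 against day −2 in DMSO of total reads (horizontal axis) and labelled reads (vertical axis) for the 46 members tested in both, with filled points for the 3 called in labelled reads. Dashed lines mark the medians of all genes, -0.02 for total and -1.45 for labelled reads. Nearly all members lie to the right of the grey line and above the red one, both quantities coming from the same libraries.

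The labelled calls rested on 3 genes. *Mrps27*, a small-subunit protein with pentatricopeptide repeats, had 40.9, 27.7 and 48.0 normalized labelled reads on day −2, 91.9, 81.1 and 151.6 on day 3 and 90.3, 179.4 and 141.6 on day 7. Its log2 fold change was 1.47 on day 3 (adjusted p = 0.0035) and 1.82 on day 7 (adjusted p = 0.000561, edgeR). *Mrps12*, the protein of the decoding site, had 49.1, 68.0 and 100.4 on day −2 and 159.1, 177.3 and 180.5 on day 7 (1.24 on day 3 and 1.25 on day 7, adjusted p = 0.00502 and 0.00515). In both genes every library of days 3 and 7 lay above those of day −2. *Mrps6* had 130.9, 55.4 and 65.7 on day −2 and 39.4, 11.6 and 22.0 on day 3, with log2 fold changes of -1.78 on day 3 (adjusted p = 0.00158) and -1.45 on day 7 (adjusted p = 0.00789). Its fall was not called when labelled counts were scaled to the labelled reads.

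*Mrps12* and *Mrps27* had unusually high labelled shares in nearly every library. Labelled reads made 11.1 to 21.4% of the reads of *Mrps12* and 14.5 to 31.4% of those of *Mrps27*, apart from 2.61% (8 labelled reads) for *Mrps27* in ML-792 replicate B of day 3. Among the 67 members with at least 100 reads in every library, the median share in DMSO was 1.52% on day −2 and 0.596% on day 7, and 61 members (91.0%) had a lower share on day 7. Over 6811 genes with at least 100 reads in every library the medians were 2.30% and 0.863%. Of these genes 92.9% had a lower share on day 7, close to the members' count, and 0.852% had a share over 10% on day 7. *Mrps27* had the highest share of the 67 members over all libraries (21.7%), and *Mrpl54* the lowest (0.309%). The shares of *Mrps12* and *Mrps27* also stayed level over time, at 15.9% and 23.6% on day −2 and 15.9% and 26.7% on day 7. What sets these shares was not tested, and the rise of labelled reads in both genes goes with a rise of their total reads (log2 fold change 1.26 and 1.64 on day 7).

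**Figure D5:**
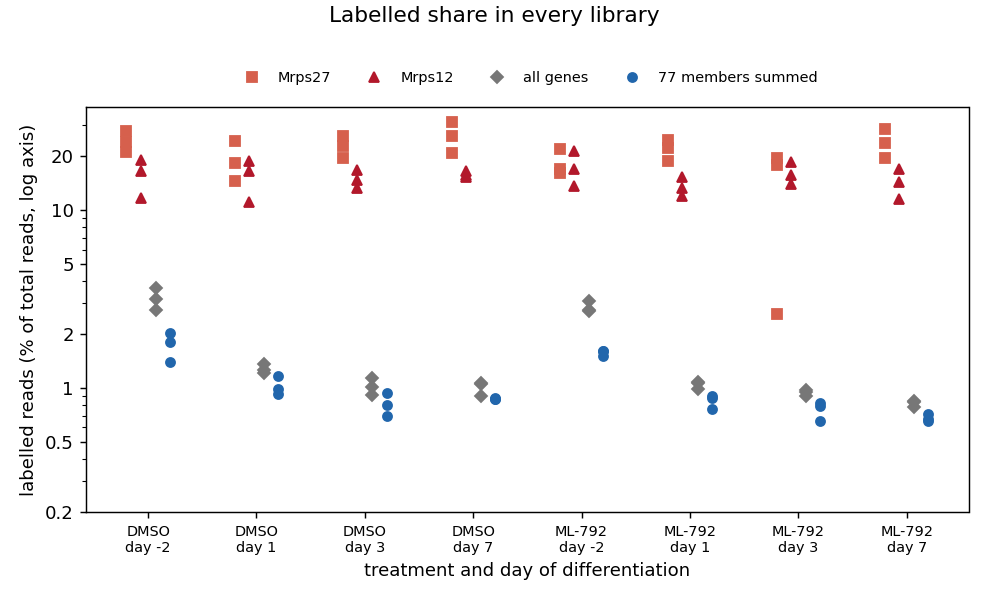
Labelled reads as a percent of total reads (vertical log axis) in each of the 24 libraries by treatment and day, for all genes, the summed members, *Mrps12* and *Mrps27*. The 2 genes stay above 10% except in 1 library, while all genes and the summed members fall after day −2.

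Summed over the members, the labelled share in DMSO was 1.75% ± 0.323 on day −2, 1.03% ± 0.123 on day 1, 0.809% ± 0.121 on day 3 and 0.871% ± 0.00196 on day 7 (SD, n = 3 per day). For all genes it was 3.19% ± 0.471, 1.28% ± 0.0744, 1.02% ± 0.112 and 1.01% ± 0.0914. The share of the members thus lay below that of all genes in the mean of every day. *Mrps12* and *Mrps27* together held between 8.01% and 40.4% of the members' labelled reads. Without them the members' share was 1.57% ± 0.327 on day −2 and 0.614% ± 0.0279 on day 7.

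No member's labelled reads were called different between ML-792 and DMSO. Of 48 members tested, 0 were called at any of the 4 days (1, 1, 2 and 3 at an unadjusted p under 0.05) and 0 in the test of day by treatment (2 at an unadjusted p under 0.05). With DESeq2, 1 member was called lower on day 7. Among all tested genes, 0% were called on day −2, 0.161% higher and 0.950% lower on day 1, 0.435% and 0.725% on day 3 and 0.0805% and 0.918% on day 7, and 0.290% in the test of day by treatment. The members' median log2 difference was -0.08, -0.33, 0.05 and -0.39, and that of all genes -0.18, -0.31, -0.07 and -0.38. The labelled share of the summed members in ML-792 was 0.845% ± 0.0739 on day 1, 0.756% ± 0.0927 on day 3 and 0.676% ± 0.0317 on day 7 (SD, n = 3). In DMSO it was 1.03%, 0.809% and 0.871%. Every treated library lay below every DMSO library on day 1 (0.760 to 0.896% against 0.921 to 1.16%) and on day 7 (0.648 to 0.711% against 0.869 to 0.873%), while the groups overlapped on day 3. The share of all genes was lower in ML-792 too, at 1.05% ± 0.0546 on day 1 and 0.822% ± 0.0317 on day 7, against 1.28% and 1.01% in DMSO. For all genes, too, the groups did not overlap on day 1 (0.985 to 1.09% against 1.21 to 1.36%) or day 7 (0.786 to 0.846% against 0.905 to 1.07%). These differences in share were not tested.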

How the data were processed

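Cells were treated, labelled and sequenced by the authors in 24 libraries, mapped to mm10 with SlamDunk and counted on RefSeq 3′UTR entries (base calls by bcl2fastq 2.17.1.14, per the labels). The authors deposited raw counts of total reads and of labelled reads for 91830 entries, with no normalization. In both tables, 6 library columns match no sample and were left out. Because a read needs a T-to-C conversion to count as labelled, sequencing errors and fixed base differences are counted too and no background was taken off. Intervals cover the spread between cultures and counting error only.

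Libraries were grouped by sample title. Counts were fitted with edgeR 4.0.16 in R 4.3.3 (limma 3.58.1), using robust quasi-likelihood, TMM factors over the 24 libraries and filterByExpr (minimum count 10, minimum total 15). For labelled counts the sizes and TMM factors came from the total counts. Days were compared in the 12 DMSO libraries, and ML-792 with DMSO and day by treatment in all 24. Benjamini-Hochberg adjustment ran over all tested entries, and shares of all genes use a single entry (1) for every gene. The 2 read classes come from the same libraries, and comparisons with day −2 share its 3 libraries. Counts per effective library size, brought to the mean size, are given as normalized counts, and log2 fold changes are the fitted values. The fit was tested on simulated data.

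Alternatives were DESeq2 1.42.0, library sizes without TMM, no filter, the replicate letter as a block, only 1 entry for each gene, labelled library sizes, only the 6 libraries of a day and leaving out each letter. The median without members of few reads and the summed labelled shares without *Mrps12* and *Mrps27* were added after the data were seen. Named members were the 5 highest and lowest called at each day in DMSO total reads, the 3 highest and lowest called in ML-792 and labelled comparisons and in the interaction, the members at the extremes of level and labelled share, the S18 family, *Mrpl12* and *Mrps36*. Members, lists and this rule were chosen with earlier results of these data known. Libraries of a condition differed by more than sampling noise in a chi-square test of their counts (lowest chi-square per degree of freedom 7.78), so none was counted as a duplicate. RefSeq promoters were matched by symbol.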

Additional observations from a re-analysis of the deposited data

Results flagged for a closer look

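The effect of ML-792 on total reads of *Mrps6* differed between days in the test of day by treatment (adjusted p = 0.0398, edgeR's quasi-likelihood F-test over 24 libraries). The log2 differences from DMSO were 0.17 on day −2, 0.37 on day 1, 1.07 on day 3 and 0.47 on day 7. The adjusted p was 0.145 without a filter on low counts, 0.619 without replicate A and 0.509 without replicate C, and ranged from 0.00216 to 0.619 over all settings.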

How the results depend on the processing

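The number of members called in total reads of DMSO kept within 1.5 times its value at days 3 and 7 under DESeq2, library sizes without TMM factors, no filter, 1 entry per gene and the replicate block (55 to 64 and 45 to 63, against 55 and 53). Leaving out 1 replicate letter gave 33 to 62 and 30 to 61. Of the 55 and 53 members, 29 and 28 were called under every setting. For day 1 (8 members) the count was 13 with DESeq2, 24 with the replicate block and 1 to 16 without 1 letter. For day 3 against 1 (34) it was 54 with the block and 4 to 57 without 1 letter. For day 7 against 3 (1) it was 2 with DESeq2, 3 without a filter, 2 with 1 entry per gene, 6 with the block and 0 to 2 without 1 letter. The members' median for day 7 was 0.99 without TMM factors, where that of all genes moved to -0.16, and 1.22 without members of a mean under 100 reads.

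For labelled reads in DMSO, library sizes from the labelled reads gave 2, 8 and 6 called members for days 1, 3 and 7. The members' medians were 0.91, 1.45 and 1.32, against 0.04, -0.01 and -0.01 for all genes. Without 1 letter, 0 to 3 were called for day 3 and 1 to 3 for day 7. For ML-792 in total reads, day 1 (0) gave 1 with DESeq2, 3 with the block and 0 to 3 without 1 letter. Day 3 (3) gave 7 with the block, 1 with the 6 libraries of the day alone and 1 to 5 without 1 letter. Day 7 (3) gave 1 without a filter, 6 with the block, 1 with its 6 libraries and 0 to 7 without 1 letter. In labelled reads on day 7 (0), DESeq2, the block and the 6 libraries of the day each gave 1. The interaction (1) gave 2 with DESeq2, 0 without a filter, 2 with 1 entry per gene, 5 with the block and 0 to 3 without 1 letter. Shares of all genes called are given above for the reported fits only, so the counts under other settings have no such share beside them. The causes were not tested.

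After condition means were taken off, libraries of the same letter had a mean correlation of 0.213 (lowest -0.122), and libraries of different letters -0.104. The second value nearly follows from the first, because the 3 values left in each condition sum to 0. Libraries of a letter were thus more alike on average, though not in every pair. The comparisons reported did not use the letters as pairs all the same. With the letter as a block, more members were called in several comparisons, as given above. Of 41 values of named members, 14, 36 and 13 kept their call without A, B and C, and 0 changed sign. Depth limits the labelled reads: 22 members had a median of 3 or fewer labelled reads.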
